A study of Xenopus tropicalis with 4 samples.

Results

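Genes of the DNA replication machinery were followed in animal caps, the ectodermal explants of Xenopus tropicalis gastrulae, from embryos injected with a control or a Foxh1 morpholino oligonucleotide (MO). Members were chosen by symbol: the origin recognition (orc), minichromosome maintenance (mcm), GINS, DNA polymerase alpha, delta and epsilon, primase, replication factor C (rfc), replication protein A (rpa) and ribonucleotide reductase (rrm) genes, with pcna, cdc6, cdc7, cdc45, cdt1, fen1, lig1, top2a, tipin, timeless, rif1 and the chaf1 genes. These gave 57 of 28850 genes, and 57 passed the filter on low counts. The symbol rule also took mcm3ap, whose product is known for work in mRNA export, and mcm8 and mcm9, known for roles in recombination. The gene for the fork protein Claspin carries the symbol clspn, which the rule did not match, and it is given with the surrounding genes. Wild-type embryos received 22.5 ng of MO at the 1-cell stage and were kept at 25 °C, and caps were taken at stage 10.5, with 2 libraries of poly(A) RNA per group. The labels give no MO type or sequence. They also do not say that replicate libraries were separate clutches or cultures, so p-values describe the spread among these 4 libraries and that spread may be technical.

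Replication begins with licensing, when the origin recognition complex, Cdc6 and Cdt1 load the ring of Mcm subunits on DNA. The kinase Cdc7 with its activator Dbf4, and the factors Cdc45 and GINS, then turn that ring into a moving helicase. DNA polymerase alpha with primase starts each strand, replication factor C loads the clamp PCNA, and polymerases delta and epsilon extend the strands. The Xenopus egg holds a maternal stock of these proteins that serves rapid cleavage cycles, and the gastrula follows the midblastula transition, when cycles lengthen and zygotic transcription has begun.

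Foxh1, a forkhead protein, is known as a partner of Smads downstream of Nodal. In CPM, counts scaled to a common library size, the foxh1 transcript was at 79.3 (control MO 1), 71.2 (control MO 2), 264 (Foxh1 MO 1) and 174 (Foxh1 MO 2) (2.91-fold higher, edgeR quasi-likelihood adjusted p = 0.000431). Since RNA does not show how much protein was left, groups are named by their labels, and "rose" or "higher" means higher in the libraries labelled Foxh1 MO. Expected counts summed to between 25632619 and 29800530 per library, and the ribosomal RNA gene model took 28.3%, 34.0%, 32.2% and 29.8% of them (both controls first, then both libraries labelled Foxh1 MO). In the same order the 57 replication genes took 0.666%, 0.613%, 0.616% and 0.676% of the counts. Their share was lower in control MO 2 and Foxh1 MO 1, which had more ribosomal RNA, than in control MO 1 and Foxh1 MO 2. Between control MO 1 and Foxh1 MO 2 both shares were higher in Foxh1 MO 2. Both are parts of the same total, so a larger ribosomal RNA share itself lowers the other. The 12 ectoderm markers summed to 3032 to 3253 CPM, of which epcam alone held 1067.4 to 1120.5 CPM. Single markers moved: 5 were called higher (grhl1 at 119.7 and 106 against 204 and 194 CPM) and 4 lower (sox2 at 182 and 189 against 86.1 and 72.1 CPM). Over all tested genes 4.17% were called higher and 4.07% lower. The 11 mesoderm and organizer markers, with msgn1 at 0 in all 4 libraries, summed to 74.1 and 76.8 CPM under control MO and to 121 and 89.3 CPM under Foxh1 MO. Most of that sum was the gene not (60.7, 60.3, 111.8 and 79.1 CPM). The other 10 markers summed to 13.4, 16.6, 9.42 and 10.2 CPM. Of the list 6 were tested, and 1 was called higher, the gene not. The 2 called lower were chrd.1 (3.12 and 2.71 against 0.292 and 0.151 CPM) and eomes (5.26 and 6.16 against 3.14 and 2.72 CPM). The 15 endoderm and vegetal markers summed to 101 and 118 CPM under control MO and to 90.4 and 97.0 CPM under Foxh1 MO. Of the 12 tested genes of that list 1 was called higher, darmin, at 0.191 and 0.211 against 1.825 and 2.19 CPM. Also 1 was called lower, sox17b.1, at 3.40 and 3.32 against 1.54 and 1.68 CPM. The part of such cells, and of the ribosomal RNA share, in the changes of replication genes was not tested.

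After Foxh1 MO injection 6 of the 57 genes rose and 0 fell. They were rfc5, cdc45, rpa2, mcm3, pcna and pola1, and they belong to 5 different functional groups. Their rises ran from 1.41-fold for pola1 to 2.56-fold for rfc5. The share called was 10.5%, beside 8.24% of all 13756 tested genes (4.17% higher and 4.07% lower). Calls are edgeR quasi-likelihood tests at a Benjamini-Hochberg threshold of 0.05, adjusted across the whole table. DESeq2 and limma-voom each called the same 6 higher and 0 lower, while limma-trend on log2(TPM + 1) called 5 higher and 1 lower. Only rfc5 and cdc45 were called when libraries were scaled by their totals alone, and likewise without control MO 1, without control MO 2 or without Foxh1 MO 2. In bulk RNA, more cells of a type and more RNA per cell cannot be told apart.

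**Figure D1:**
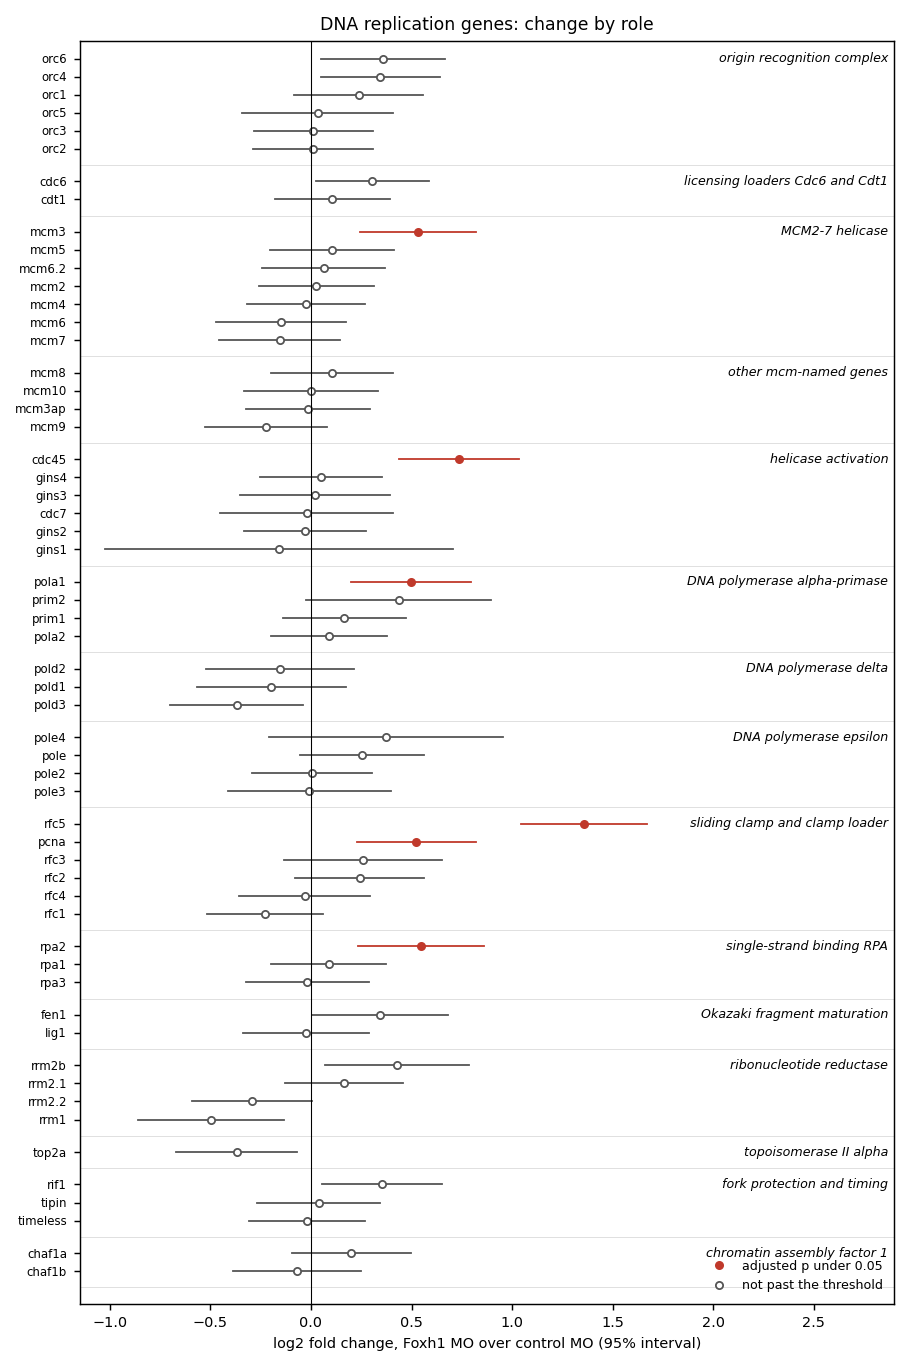
Log2 fold change of each of the 57 replication genes (points; Foxh1 MO over control MO, 2 libraries each) with its estimated 95% interval (lines), grouped by role. Filled red points are the 6 genes past the threshold, led by rfc5 at 1.36; the other 51 lie between -0.50 and 0.44.

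The other 51 genes did not pass the threshold, and their log2 fold changes ran from -0.50 for rrm1 to 0.44 for prim2. The median over the 57 was 0.04, against -0.00019 over all tested genes, and turned to -0.01 against -0.03 on log2(TPM + 1), where TPM is a length-scaled share of transcripts. Of the 57, 35 were above 0, where 50% of all tested genes were. At an unadjusted p under 0.05 there were 15, beside 21.6% of all tested genes: 12 were higher and 3 lower, beside 10.8% of all tested genes in each direction. In CPM the groups did not overlap for 30 of the 57 (52.6%), close to the 50.8% of all tested genes. Of these, 23 were higher (40.4%, against 26.5% of all tested genes) and 7 lower (12.3%, against 24.3%). This split depended on the scale. In TPM the groups of chaf1a, prim1, pola2, prim2, mcm8, rrm2.1 and rpa1, higher in CPM, overlapped. Those of mcm7, pold1 and pold2, which overlapped in CPM, were lower without overlap in TPM. The share over all tested genes was not computed in TPM. The estimated 95% interval, like the p-values, describes the spread among these 4 libraries. It lay within 2-fold either way for 54 genes (75.1% of all tested genes) and within 1.5-fold for 37 (43.8% of all). The exceptions to 2-fold were the called rfc5 and cdc45, whose intervals reached 1.67 and 1.03 on the log2 scale, and gins1, with only 16 to 28 counts per library and an interval from -1.02 to 0.70.

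On a per-length scale the replication genes were well expressed. Their median control level was 62.3 TPM, against 15.6 TPM over all tested genes, and 46 of 57 lay above that median. The order was led by mcm7, cdt1, rrm2.2, rpa3 and pcna and ended with pole, rrm2b, rfc3, pole4 and gins1. Subunits of a complex differed widely. The helicase subunit gene mcm7 stood at 1270, 1369, 1181 and 1127 TPM in control MO 1 and 2 and Foxh1 MO 1 and 2. It took 72.0%, 74.9%, 71.5% and 68.2% of the TPM of the 7 genes for Mcm2 to Mcm7, and was 23.9 to 28.4 times the joint level of the 2 genes for the Mcm6 subunit. Because the table of RefSeq genes places ap4m1 and microRNA genes within or across mcm7, and the strand setting of the counting is not given in the sources used here, part of the mcm7 signal may belong to them. The same holds for chaf1a, mcm3ap, orc2, orc6, pold3 and tipin, which also overlap another gene in assembly UCB_Xtro_10.0; none of the 6 genes that rose does.

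**Figure D2:**
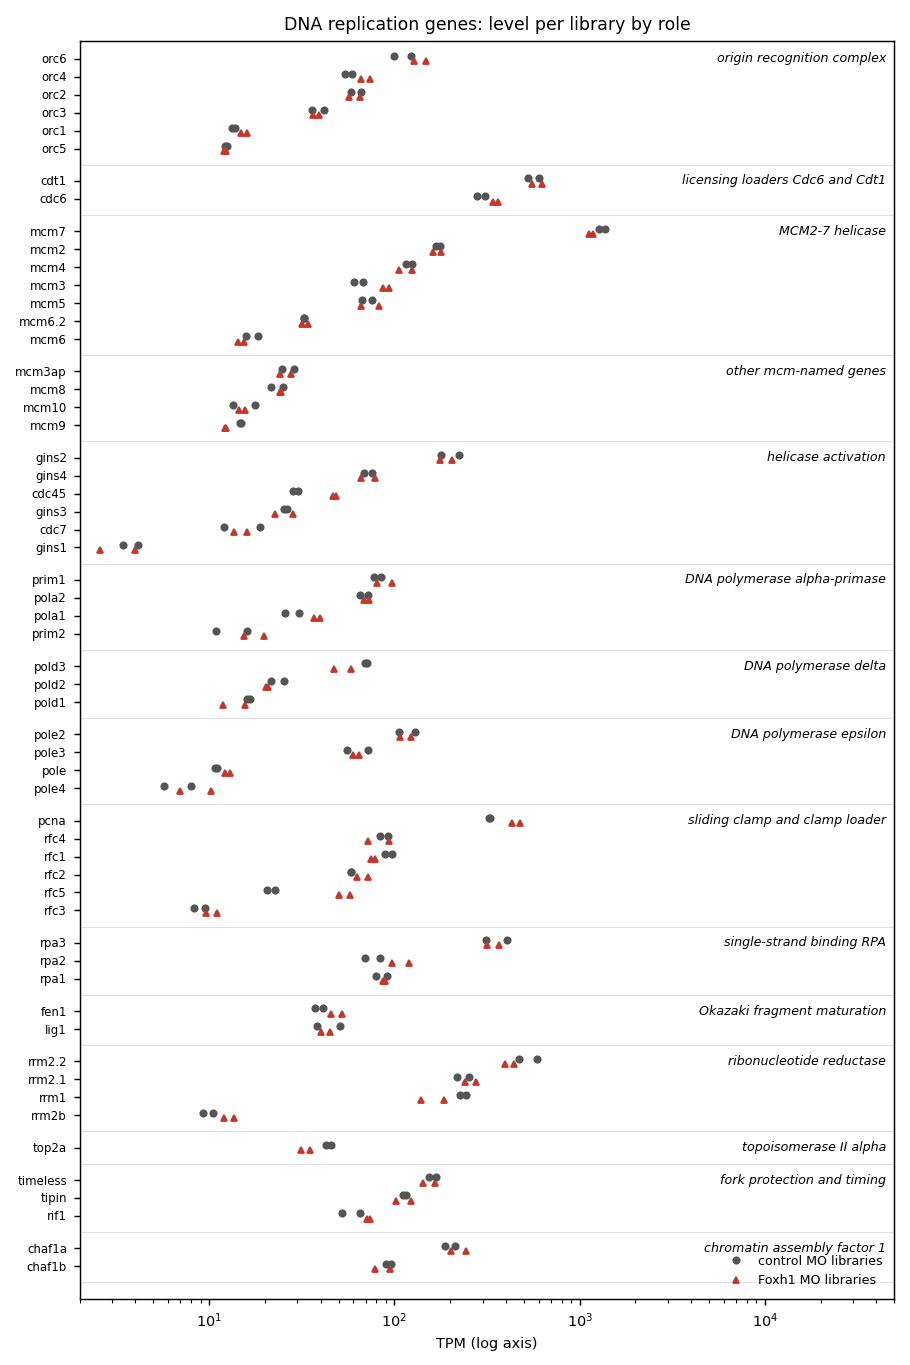
Level of each replication gene in TPM (log axis) in the 2 control MO libraries (grey circles) and the 2 libraries labelled Foxh1 MO (red triangles), grouped by role. Levels span from 2.58 TPM for gins1 to 1369 TPM for mcm7, and the red and grey symbols of rfc5 and cdc45 stand apart.

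In the licensing step a single gene, mcm3, rose. It encodes a subunit of the Mcm ring and stood at 68.2 and 66.9 CPM in the controls and at 95.6 and 99.9 CPM in the libraries labelled Foxh1 MO. Both treated libraries thus lay above both controls (1.45-fold, log2 fold change 0.53, SE 0.13, edgeR adjusted p = 0.0283). The other Mcm ring genes lay close to 0: mcm2 at 0.03, mcm4 at -0.03, mcm5 at 0.11, mcm7 at -0.16, mcm6 at -0.15 and mcm6.2 at 0.06, none past the threshold. Within this ring mcm3 ranked below mcm5 in TPM in both control libraries (67.5 and 60.4 against 75.4 and 66.5) and above it in both libraries labelled Foxh1 MO (86.4 and 93.4 against 66.2 and 82.1). The files list 2 genes for the Mcm6 subunit, and mcm6.2 gave 63.8% and 67.2% of their joint TPM in the controls, against 70.4% and 67.0% under Foxh1 MO, so the groups overlapped. Counts of both were whole numbers, within 0.005, in every library.

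Of the 6 origin recognition genes, which mark the sites where replication can start, 0 passed by edgeR, DESeq2 or limma-voom. An unadjusted p under 0.05 was reached by 2, beside 21.6% of all tested genes. All 6 log2 fold changes were above 0, as were 50% of all tested genes, with a median of 0.13. The 2 were orc6, the most abundant of them in TPM (its CPM were 51.0, 45.7, 58.1 and 65.7 in control MO 1 and 2 and Foxh1 MO 1 and 2), and orc4 (32.4, 32.9, 39.8 and 43.2 CPM). Their log2 fold changes were 0.36 and 0.35, with edgeR adjusted p of 0.156 and 0.157. For orc2, orc3 and orc5 the values were 0.01, 0.01 and 0.03, and for orc1 0.24. Over 15 alternatives those of orc2, orc3 and orc5 ran from -0.08 to 0.09, -0.04 to 0.05 and -0.07 to 0.14. The loading factor gene cdc6 stood at 261 CPM in both controls and at 318 and 327 CPM in the libraries labelled Foxh1 MO, without overlap, but did not pass (log2 fold change 0.31, SE 0.13, edgeR adjusted p = 0.188). Its partner cdt1, the second most abundant replication gene, had overlapping groups (647, 613, 645 and 711 CPM, log2 fold change 0.11). Of the other mcm-named genes, mcm10, which encodes a factor of helicase activation, had a log2 fold change of -0.00016. For mcm3ap, the most abundant of them by mean TPM (24.0 to 28.8 TPM, though just below mcm8 in Foxh1 MO 2), it was -0.01. The values of mcm8 and mcm9 were 0.10 and -0.22.

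The gene for Cdc45, a core part of the active helicase, rose. Its transcript was at 23.5 and 24.1 CPM in the controls and at 39.7 and 39.5 CPM in the libraries labelled Foxh1 MO. The gap between groups was far wider than that within them (1.67-fold, log2 fold change 0.74, SE 0.14, edgeR adjusted p = 0.00614). The genes of GINS, the other factor that joins the Mcm ring, did not pass: gins1 was at -0.16, gins2 at -0.03, gins3 at 0.02 and gins4 at 0.05. Of these gins2 was the most abundant, at 222 and 178 TPM in the controls and 176 and 204 TPM in the others. The kinase gene cdc7 was at 12.1, 8.51, 11.2 and 9.20 CPM, with groups that overlapped and a log2 fold change of -0.02.

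Among the polymerases, the catalytic subunit gene of DNA polymerase alpha, pola1, rose. It stood at 62.4 and 55.3 CPM in the controls and at 82.2 and 84.0 CPM in the libraries labelled Foxh1 MO (1.41-fold, log2 fold change 0.50, SE 0.14, edgeR adjusted p = 0.0437). The other genes of the alpha-primase complex did not pass the threshold. In CPM they were higher in both libraries labelled Foxh1 MO than in either control, as were 26.5% of all tested genes. In TPM their groups overlapped. Their log2 fold changes were 0.09 for pola2, 0.17 for prim1, the most abundant of the complex in TPM, and 0.44 for prim2, which is read from only 4.40 to 7.66 CPM. The 3 polymerase delta genes had negative signs: -0.15 for pold2, -0.20 for pold1 and -0.37 for the accessory subunit gene pold3. The last was at 48.5 and 54.5 CPM in the controls and at 44.5 and 35.2 CPM in the others (edgeR adjusted p = 0.177). Polymerase epsilon genes were at 0.25 for pole, the catalytic subunit, 0.01 for pole2, -0.01 for pole3 and 0.37 for pole4, the least abundant. The most abundant of them, pole2, overlapped between groups (84.4, 76.1, 76.8 and 84.4 CPM).

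The clamp and its loader held the largest change. The loader subunit gene rfc5 was at 16.0 CPM in control MO 1, 16.1 in control MO 2, 38.8 in Foxh1 MO 1 and 43.4 in Foxh1 MO 2. Every value of the treated group was thus more than 2-fold above every control (2.56-fold, log2 fold change 1.36, SE 0.14, edgeR adjusted p = 0.000216). In TPM it moved from rank 44 to rank 32 of the 57. The clamp gene pcna, whose protein ring holds polymerases on DNA, rose as well, from 123 and 135 CPM to 178 and 193 CPM (1.44-fold, log2 fold change 0.52, SE 0.14, edgeR adjusted p = 0.0332). Other loader subunit genes did not pass, with log2 fold changes of -0.23 for rfc1, 0.24 for rfc2, 0.26 for rfc3 and -0.03 for rfc4. The ratio of pcna to rfc5 in TPM was 14.4 and 15.6 in the controls, against 8.58 and 8.30 under Foxh1 MO. In the RefSeq table the coding neighbours of rfc5 are ksr2 and wsb2, whose log2 fold changes were -0.47 and -0.16, both short of the threshold (edgeR adjusted p = 0.630 and 0.767).

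Of the 3 genes of replication protein A, which coats single-stranded DNA, rpa2 rose. It was at 34.5 and 32.2 CPM in the controls and 44.3 and 53.0 CPM in the libraries labelled Foxh1 MO (1.46-fold, log2 fold change 0.55, SE 0.15, edgeR adjusted p = 0.0374). The log2 fold changes of rpa1 and rpa3 were 0.09 and -0.02. In TPM rpa3 was the most abundant of the complex, and its ratio to rpa2 was 4.85 and 4.48 in the controls and 3.26 and 3.07 in the others. The genes that finish Okazaki fragments did not pass. For fen1, the flap nuclease gene, the values were 18.8, 23.0, 25.0 and 28.1 CPM, with the groups apart (log2 fold change 0.34, edgeR adjusted p = 0.221). The DNA ligase gene lig1 overlapped between groups at 90.6, 74.7, 78.2 and 84.4 CPM.

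**Figure D3:**
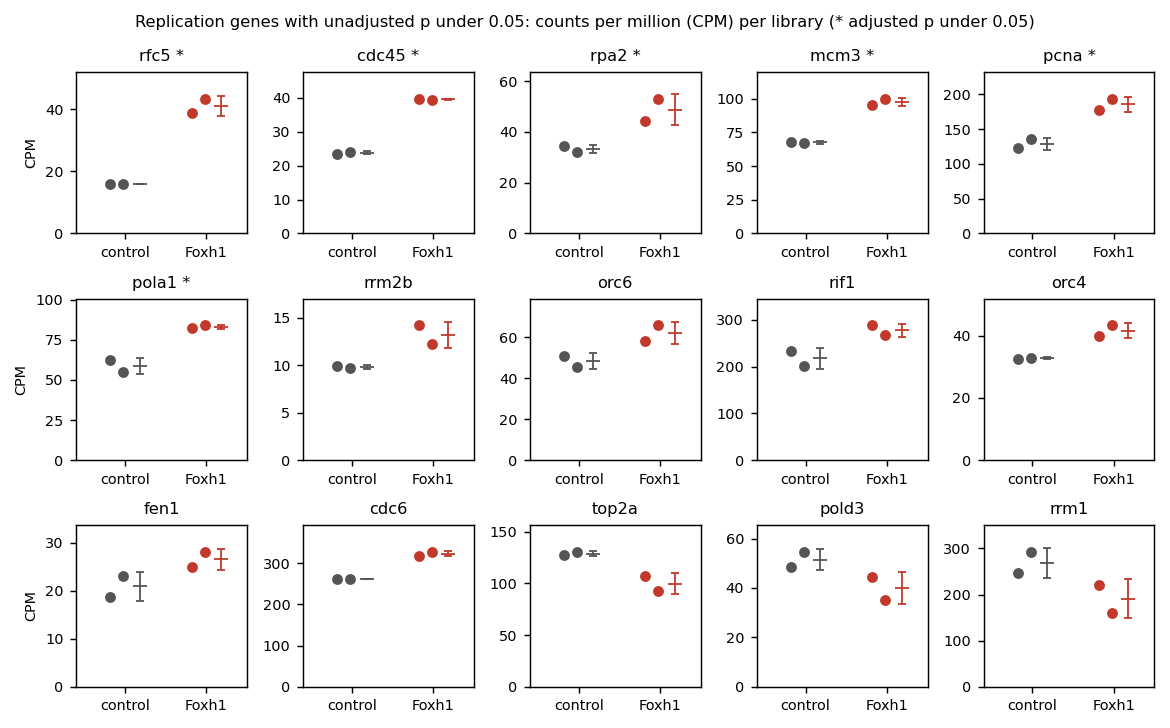
CPM in each library (points; control MO grey, Foxh1 MO red) with mean and SD of n = 2 (bars) for the 15 replication genes with an unadjusted p under 0.05. Each axis starts at 0; 12 genes are higher and 3 (top2a, pold3 and rrm1) lower in the libraries labelled Foxh1 MO, and the 6 starred genes pass the adjusted threshold.

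Ribonucleotide reductase, which makes the deoxynucleotides for replication, had genes on both sides of 0. The large subunit gene rrm1 was at 246 and 292 CPM in the controls and at 221 and 161 CPM in the libraries labelled Foxh1 MO. The groups did not overlap, but the libraries within each lay well apart, and the gene did not pass (1.41-fold lower, log2 fold change -0.50, SE 0.17, edgeR adjusted p = 0.0938). The 2 libraries labelled Foxh1 MO differed. Without Foxh1 MO 1 the log2 fold change was -0.74, and without Foxh1 MO 2 it was -0.29. The gene did pass with upper-quartile scaling, with no filter and on log2 of TPM. The small subunit gene rrm2.2 was at 357, 312, 260 and 285 CPM (log2 fold change -0.29, edgeR adjusted p = 0.238), and its neighbour and copy rrm2.1 at 141, 135, 146 and 163 CPM (0.16). The share of rrm2.2 in their joint TPM was 70.0% and 68.2% in the controls and 62.2% and 61.8% in the others. Non-whole counts, which arise when reads are divided between genes, occurred in 4 of 228 values, all of this pair, in control MO 2 and Foxh1 MO 1. For rrm2b, whose mammalian counterpart responds to p53, the values were 9.94, 9.64, 14.2 and 12.2 CPM (log2 fold change 0.43, edgeR adjusted p = 0.142).

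The remaining genes did not pass. The topoisomerase gene top2a, which untangles sister DNA, was at 127 and 130 CPM in the controls and 107 and 92.3 CPM in the others (log2 fold change -0.37, edgeR adjusted p = 0.131). The replication timing gene rif1 lay on the other side, at 233 and 201 CPM in the controls and 288 and 267 CPM in the others (0.35, edgeR adjusted p = 0.153). Timeless and tipin, which encode a pair of fork protection proteins, were at -0.02 and 0.04, with timeless the most abundant of this group at 154 to 168 TPM in the controls and 143 to 166 TPM in the others. The histone chaperone subunit genes chaf1a and chaf1b, which place histones on new DNA, were at 0.20 and -0.07. Of these chaf1a was the more abundant, at 292, 282, 306 and 353 CPM.

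Genes that surround the machinery were read from 5 lists, holding 81 tested genes. Of these 7 rose, 4 fell and 70 did not pass (13.6% called, against 8.24% of all tested genes), with a median log2 fold change of 0.04. Both activator genes of the Cdc7 kinase rose. The first, dbf4, was at 152 and 127 CPM in the controls and 248 and 259 CPM in the libraries labelled Foxh1 MO (1.81-fold, log2 fold change 0.86, SE 0.14, edgeR adjusted p = 0.00306). The second, dbf4b, which encodes Drf1, was at 24.6, 25.0, 42.2 and 33.5 CPM (1.53-fold, edgeR adjusted p = 0.0279). The call of dbf4b ended on log2 of TPM and without either control library or Foxh1 MO 1 (edgeR adjusted p = 0.0757 and 0.0734 without control MO 1 and 2, and 0.0681 without Foxh1 MO 1). The kinase gene cdc7 itself did not pass (log2 fold change -0.02). The ratio of dbf4 to cdc7 in TPM, chosen after their values were seen, was 8.35 and 9.93 in the controls and 14.6 and 18.6 in the others. Drf1 is among the 4 factors known in Xenopus to limit origin firing at the midblastula transition. The genes of the others differed: topbp1 had a log2 fold change of 0.31, ticrr, which encodes Treslin, of 0.04, and recql4 of -0.47, none past the threshold. The groups of topbp1 and recql4 did not overlap (edgeR adjusted p = 0.193 and 0.0913). With upper-quartile scaling recql4 passed, and with each library left out its log2 fold change ran from -0.66 to -0.31. Of the remaining licensing and firing genes, cdk1 (1.48-fold lower, 25.4 and 25.3 to 16.4 and 18.0 CPM, edgeR adjusted p = 0.0331) and the cyclin gene ccna1 (1.51-fold lower) fell. The cyclin gene ccna2, at the highest CPM in this list, was at 0.21 and did not pass. The Cdt1 inhibitor gene gmnn was at 209, 183, 146 and 166 CPM and did not pass, nor did cdt1. The ratio of cdt1 to gmnn in TPM, chosen after their values were seen, was 0.989 and 1.09 in the controls and 1.42 and 1.38 in the others.

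Among 26 fork and lagging strand accessory genes, 5 were higher and 1 lower at an unadjusted p under 0.05. Over all tested genes the share was 10.8% in each direction. Past the edgeR threshold 3 rose and 0 fell (11.5% called, against 8.24% of all tested genes). They were rnaseh2a, which encodes the catalytic subunit of a nuclease for RNA in DNA (1.68-fold, 9.15 and 12.1 to 18.0 and 17.7 CPM), the topoisomerase gene top3a (1.49-fold) and etaa1, an activator of the ATR kinase (1.48-fold). The Claspin gene clspn stood at 119, 107, 145 and 165 CPM, with the groups apart (log2 fold change 0.46, edgeR adjusted p = 0.0671), and top1.1, at the highest CPM of the list, had a log2 fold change of -0.10. Of 14 checkpoint genes 2 fell and 0 rose by edgeR (14.3% called). At an unadjusted p under 0.05, 3 checkpoint genes were lower and 1 higher, beside 10.8% of all tested genes in each direction. The phosphatase gene cdc25b fell from 144 and 133 CPM to 97.4 and 59.1 CPM (1.77-fold lower, edgeR adjusted p = 0.0231), and cdc25a from 84.9 and 84.1 CPM to 63.7 and 55.1 CPM (1.42-fold lower, edgeR adjusted p = 0.0418). The log2 fold change of cdc25c, at the highest CPM of the list over all 4 libraries though below cdc25b in both controls, was -0.06. Of 10 further genes of deoxynucleotide supply 1 was called (10%). The thymidylate kinase gene dtymk rose (1.78-fold, edgeR adjusted p = 0.0128), while dctd, at the highest CPM, had a log2 fold change of 0.01. Of 14 genes of chromatin assembly and maintenance 1 was called (7.14%), npm2, which encodes the histone store nucleoplasmin. It rose from 43.5 and 52.1 CPM to 66.0 and 77.3 CPM (edgeR adjusted p = 0.0325). At the highest CPM of the list, uhrf1 had a log2 fold change of -0.03.

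**Figure D4:**
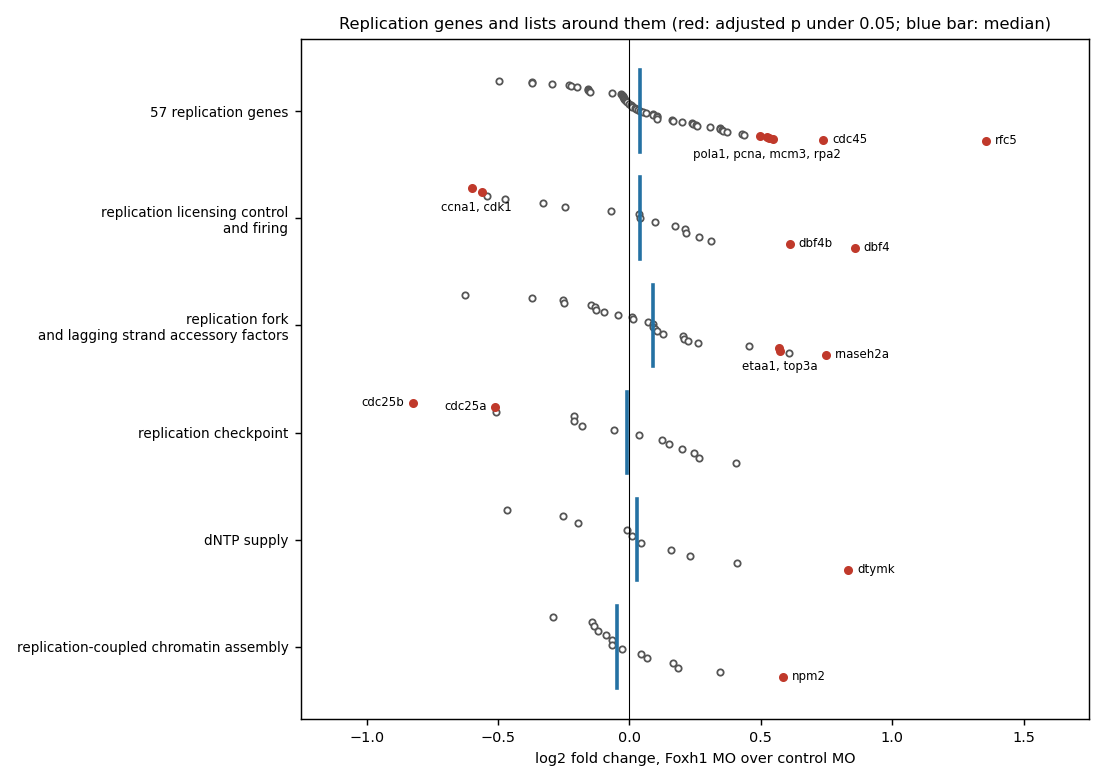
Log2 fold changes (Foxh1 MO over control MO) of the 57 replication genes and of 81 further genes in 5 lists (points), with each list's median (blue bar). Red points pass the threshold and are named: 6 and 7 genes on the right, and 4 on the left.

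The calls rested unequally on single libraries. For rfc5 and cdc45 the call held whichever library was left out, with log2 fold changes of 1.27 to 1.44 and of 0.72 to 0.76. In each refit the lone library of a group was assumed to vary like the others. The calls of mcm3, pcna, pola1 and rpa2 held without Foxh1 MO 1. That refit also called more of all tested genes than the fit of all 4 libraries. The calls of these genes ended without control MO 1, without control MO 2 or without Foxh1 MO 2. Their values stayed above 0 throughout, at 0.49 to 0.57 for mcm3, 0.46 to 0.60 for pcna, 0.41 to 0.59 for pola1 and 0.41 to 0.67 for rpa2, and the largest edgeR adjusted p were 0.208, 0.293, 0.391 and 0.208. The groups of these genes did not overlap, so a sign kept with a library left out adds little. Their calls ended also when libraries were scaled by their totals alone, and that of pola1 on log2 of TPM. Without Foxh1 MO 1 the log2 fold changes of rrm1, pold3, top2a and orc6 were -0.74, -0.54, -0.47 and 0.45. Of the surrounding genes dbf4 was called in every such refit (largest edgeR adjusted p = 0.0430), while 2 of the 7 rises were called without control MO 1, 5 without control MO 2, 5 without Foxh1 MO 1 and 4 without Foxh1 MO 2. Of the 4 falls, 1, 2, 3 and 2 were called in the same refits. The authors' deposited table gave fold changes of 2.56 for rfc5, 1.67 for cdc45, 1.46 for rpa2, 1.45 for mcm3 and 1.44 for pcna, all with a false discovery rate under 0.05. For rpa2, mcm3 and pcna that rate was just under it, at 0.0475, 0.0489 and 0.0494 in the authors' deposited table. In the authors' deposited table pola1 had a rate of 0.0741 and rrm1 of 0.0577. Of the surrounding genes that fell, cdk1 and cdc25a had rates of 0.0594 and 0.0643 in the authors' deposited table. The gene dtl, of the licensing and firing list, passed there, with a rate of 0.0426 in the authors' deposited table, and missed the threshold here (log2 fold change -0.54, edgeR adjusted p = 0.0541).

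**Figure D5:**
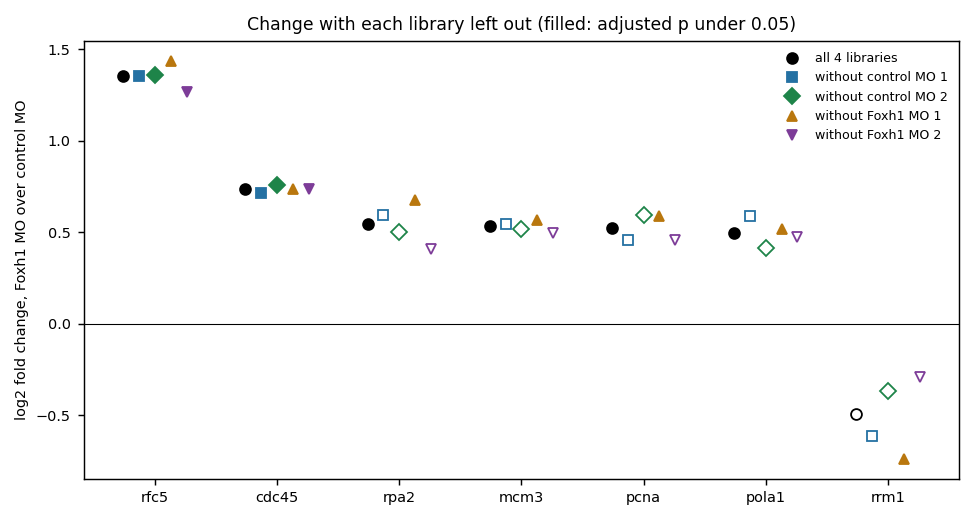
Log2 fold change (Foxh1 MO over control MO) of the 6 genes that rose and of rrm1, with all 4 libraries and with each left out; filled symbols have an adjusted p under 0.05. The symbols of rfc5 and cdc45 are filled throughout, those of the other 4 risen genes only with all libraries and without Foxh1 MO 1.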

How the data were processed

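For each of 28850 genes the RSEM output of a library, per the file headers, held expected counts, effective length, TPM and FPKM, both linear. FPKM values, deposited by the authors, went untested. Tools in the submitters' processing notes are R 4.1.2, RSEM 1.3.3, STAR 2.7.3a and edgeR 3.36.0, while build and strand setting are not given in the sources used here. For 13758 genes, the authors' deposited comparison holds F scores, p-values, log2 fold changes and mean log2 CPM. Columns of other samples numbered 0.

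Rounded expected counts were fitted by group with edgeR 4.0.16 under R 4.3.3, without covariates (filterByExpr with minimum count 10 and total 15, TMM, quasi-likelihood F test). This left 13756 genes. The SE of a log2 fold change is its size divided by the square root of F, and intervals are 95%. CPM is TMM-scaled. Alternatives used DESeq2 1.42.0, limma 3.58.1 and the refits named in the closing section. Scripts were tested on simulated data. RefSeq assembly UCB_Xtro_10.0 gave names and neighbours only, and matched 57 of 57 members.

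Members, lists and tests were chosen with earlier results of these data known. All members were named. Per list of surrounding genes, the rule named called genes (up to 4 per direction) and the gene of highest CPM, plus topbp1, recql4, ticrr and dbf4b. The genes gmnn, clspn and dtl, the ratios and the neighbours were chosen after their values were seen.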

Additional observations from a re-analysis of the deposited data

How the results depend on the processing

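The 6 replication genes that rose were above 0 in 90 of 90 values over 15 alternatives, and the 11 called surrounding genes kept their sign in 165 of 165. These genes were called from the same libraries, with groups that do not overlap, so a kept sign was nearly fixed beforehand. The count of replication genes called higher was 2 without scaling and with the replicate block, and 2 to 7 with each library left out; called lower, it was 1 with upper-quartile factors, with no filter, on log2 of TPM with 1 or 0.1 added and at an adjusted p under 0.1, and 0 to 3 with each library left out. Their median log2 fold change was -0.0142 on log2(TPM + 1), -0.0143 on log2(TPM + 0.1) and 0.0648 to 0.112 with libraries left out. Surrounding genes called higher numbered 4 on both TPM scales and 2 to 9 with libraries left out; called lower, 7 with upper-quartile factors and at an adjusted p under 0.1, and 2 to 10 with libraries left out. Over all genes 874 were higher at an adjusted p under 0.1, and 388 to 853 with libraries left out; lower were 862 with no filter, 872 on log2(TPM + 0.1), and 337 to 1493 with libraries left out. The replicate block gave 546 higher and 699 lower, and ended the calls of mcm3, pcna, pola1 and rpa2 (adjusted p = 0.0574, 0.0593, 0.0840 and 0.0536). The labels state no shared source for a number. Same-numbered libraries tended to deviate in opposite directions (correlation across genes -0.23). Against 574 higher and 560 lower in the main fit, the crossed replicate block, chosen after seeing the data, gave 1036 higher and 1104 lower. Of these 7 and 3 were replication genes and 10 and 9 surrounding genes. The cause of these differences was not tested. Depth limits gins1 most, with 16 to 28 counts.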
